A study of Mus musculus with 16 samples.

Results

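Microglia that meet amyloid, myelin debris or dying cells switch on a set of genes known as the disease-associated microglia programme. Entry into the full programme depends on TREM2, a surface receptor for lipids and apoptotic cells. TREM2 has no signalling tail of its own and acts through the adaptor TYROBP (DAP12), whose phosphorylated motifs recruit the kinase SYK. In the healthy brain the late genes of the programme are nearly silent, whereas Trem2 and Tyrobp belong to the normal microglial repertoire.

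The genes described here are that receptor and adaptor, Trem2 and Tyrobp, with 7 genes of the programme: Gpnmb, Spp1, Cst7, Itgax, Lgals3, Ank and Csf1. They were taken by symbol, but the set was chosen with earlier results of these data known. They make up 9 of the 45664 gene entries of a bulk RNA-seq count table. All 9 passed the filter on low counts, which 15754 entries passed. The table holds 4 myeloid populations sorted from C57BL/6 mice aged 8 to 10 weeks, with 4 libraries each. Sorting for CD45 and CD11b gave retinal microglia and, from whole brain, brain microglia. Cornea macrophages were in addition positive for CD64 and F4/80, and bone marrow monocytes for CD115 and Ly6C. The tissue of 10 mice was pooled for a library of cornea or retina. The descriptions of the 8 brain and marrow samples name retinal microglia, so the pool size of those samples is uncertain and they were grouped by source name. Corneae were digested with collagenase at 37 °C under shaking, and retinae were dispersed mechanically in the cold; how brain and marrow were handled is not stated. The labels do not say whether the libraries of a population are separate sorts, so p-values measure the spread between these libraries, which may be partly technical.

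Levels are given as CPM, the reads of a gene per 1 M reads of a library size scaled by TMM. Both microglia and the monocytes were set apart by the markers of their labels. The summed level of 8 microglia markers was 28124 to 35214 CPM in retinal and 42898 to 47957 CPM in brain libraries, against 930 to 1011 CPM in cornea and 593 to 931 CPM in marrow libraries. The sum of 6 classical monocyte markers was 15463 to 22406 CPM in marrow and at most 1072 CPM elsewhere. The sum of 7 tissue macrophage markers was 4874 to 5517 CPM in cornea, 406 to 602 in retina, 838 to 1078 in brain and 6017 to 8805 in marrow. As a sum it did not set the cornea macrophages apart from the monocytes. F13a1, which is in the monocyte list too, averaged 6386 CPM in marrow and 771 in cornea. Every other marker of the list averaged higher in cornea than in marrow. These were Mrc1 (1553 against 21.3 CPM), Adgre1 (2515 against 432), Cbr2 (178 against 7.17), Cd163 (167 against 3.94), Folr2 (53.3 against 0.102) and Lyve1 (7.84 against 0.136). Marrow libraries also held granulocyte markers (670 to 4402 CPM) and erythroid markers (251 to 1661 CPM). All 8 rod and cone markers were detected in the retinal libraries, at a sum of 677 to 6422 CPM, against at most 3.29 CPM in the other populations. Cornea libraries also held keratocyte markers (1388 to 2586 CPM) and corneal epithelial markers (230 to 1321 CPM). The sequencer lane is tied to population: retinal libraries ran in lane 2 only and brain libraries in lane 3 only, so lane and population cannot be told apart within that pair alone. In bulk RNA, fewer cells of a type and less RNA per cell cannot be told apart.

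Short promoter windows of 5 members are shown because they hold every AP-1 match found and, in Trem2 and Spp1, a PU.1 core. The search covered 8 of the 9 genes, as Tyrobp had no window. Each window covers 120 bases before to 29 bases after the RefSeq start on build GRCm38.p6, plus strand, and matches are in capitals. AP-1 was searched as TGANTCA, with N any base, and the PU.1 core as GAGGAA, both on either strand. The base at N was C in Gpnmb and G in Itgax, but A in Trem2 and T in Cst7.

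Trem2, chr17:48346281-48346430: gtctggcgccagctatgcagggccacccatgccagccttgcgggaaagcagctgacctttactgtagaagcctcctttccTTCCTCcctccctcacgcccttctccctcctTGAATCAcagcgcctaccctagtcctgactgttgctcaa
Gpnmb, chr6:49036398-49036547: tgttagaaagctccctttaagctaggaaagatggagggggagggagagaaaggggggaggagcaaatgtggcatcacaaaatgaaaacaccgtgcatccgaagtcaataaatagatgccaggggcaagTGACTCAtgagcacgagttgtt
Cst7, chr2:150570295-150570444: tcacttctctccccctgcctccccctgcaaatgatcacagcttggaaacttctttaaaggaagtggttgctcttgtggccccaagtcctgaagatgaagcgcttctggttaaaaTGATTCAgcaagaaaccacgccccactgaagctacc
Itgax, chr7:128129430-128129579: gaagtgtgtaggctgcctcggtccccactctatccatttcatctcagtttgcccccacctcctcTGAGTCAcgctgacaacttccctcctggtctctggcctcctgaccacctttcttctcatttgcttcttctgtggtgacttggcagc
Spp1, chr5:104434991-104435140: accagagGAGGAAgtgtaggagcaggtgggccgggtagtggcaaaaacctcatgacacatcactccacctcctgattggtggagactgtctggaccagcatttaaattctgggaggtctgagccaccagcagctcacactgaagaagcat

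AP-1 is the dimer of FOS and JUN proteins, and PU.1 is the ETS factor that specifies macrophages and microglia. Over the full RefSeq windows of 250 bases before to 50 after a start, 8 of the 9 members had 9 windows; none was matched for Tyrobp. The AP-1 letters were in 4 of these 9 windows (Trem2, Gpnmb, Cst7 and Itgax), against 7.81% of all 32851 windows. The first base of the match lay 9 bases before the start in Trem2, 6 before it in Cst7, 56 before it in Itgax and 8 after it in Gpnmb. The PU.1 core was in 3 of the 9 windows (Trem2, Spp1 and Ank), against 28.3% of all windows. The E-box CACGTG bound by the MiT/TFE factors, a group that controls lysosomal genes, was in 0 of 9 against 7.15% of all. NF-kappaB letters (GGGANTTCC) were in 0 of 9 against 1.68%, and C/EBP letters (TTGCGCAA) in 0 of 9 against 0.183%. TATA box letters (TATAAA) were in 1 of 9, that of Spp1, against 13.6%. That match began 211 bases before the start, outside the short window shown. These matches are descriptions of letters, not of binding sites.

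**Figure D1:**
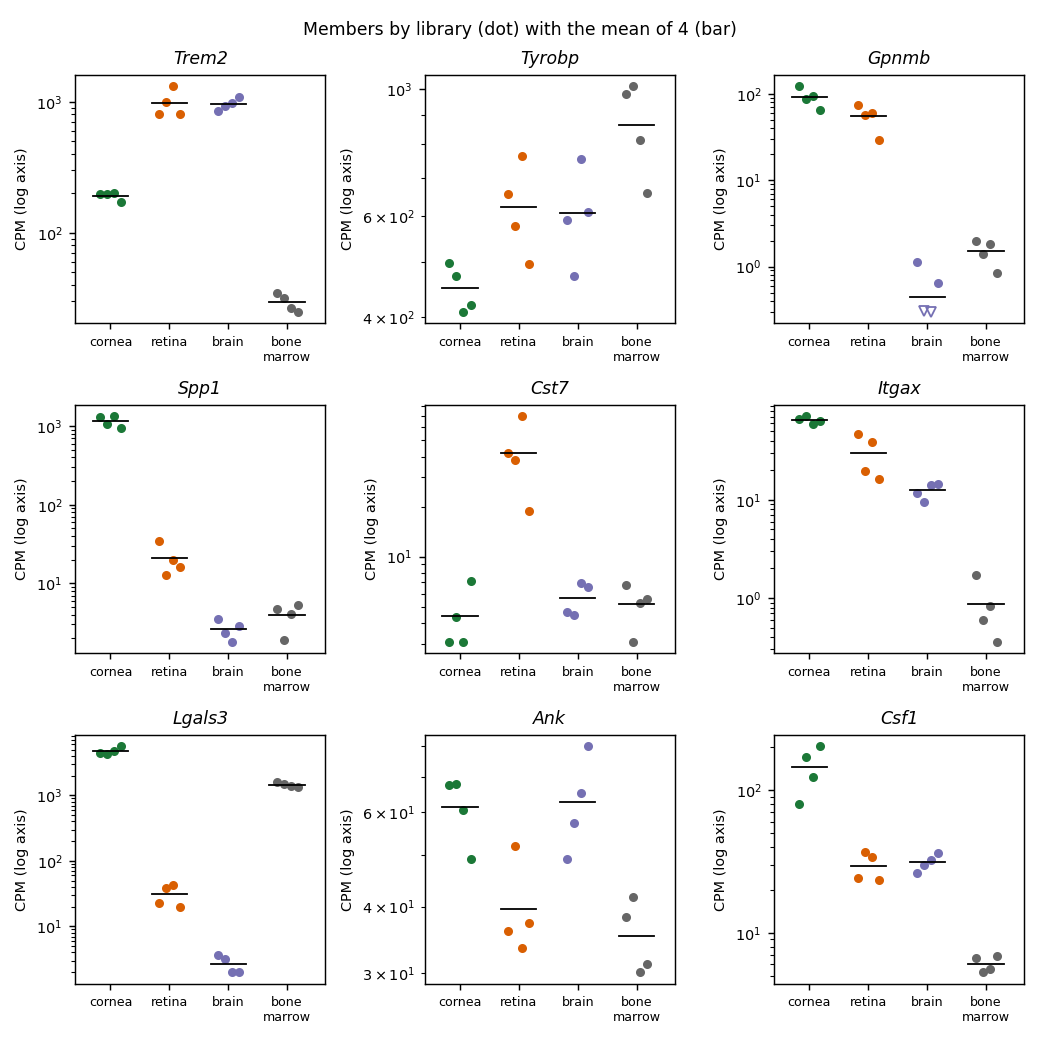
CPM of each gene (y axis, log scale) in the 16 libraries, with populations from left to right on the x axis. Dots are libraries, bars the mean of 4, and open triangles mark the value of 3 counts for libraries with a count of 0 (2 brain libraries for Gpnmb). Trem2 is high in both microglia, Cst7 in retinal microglia, and Spp1, Lgals3 and Csf1 in the cornea.

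The 9 genes did not move as 1 block across the populations. Retinal microglia differed from brain microglia in 6 of them: Gpnmb, Spp1, Cst7, Itgax and Lgals3 were higher and Ank was lower, while Trem2, Tyrobp and Csf1 did not pass the test. Between these populations 6.95% of tested genes were called higher in the retina and 3.6% lower (edgeR's quasi-likelihood test, Benjamini-Hochberg adjusted p under 0.05, here and below). These shares also stand beside the list counts given below for this pair at adjusted p, by edgeR over all libraries without a lane term. The median log2 fold change was 1.27 over the 9 genes and 0.05 over all tested genes. With lane as a term, and also without the 3 libraries whose titles lack a letter b carried by all others (cornea 1, retina 1 and retina 3), 4 of the 9 were called: Gpnmb, Spp1, Cst7 and Lgals3. Retina and brain share no lane, so the lane term, here and below, is estimated from cornea and marrow. There it rests on cornea 4, the cornea library in lane 3, and marrow 1, the marrow library in lane 2. Marrow 1 also held the most granulocyte and erythroid markers, so a lane effect in the microglia may differ. The number of all genes called between the microglia was 1662, against 463 with lane as a term. With the lane term 316 were higher and 147 lower in the retina, and without the libraries lacking the letter b 946 and 325. DESeq2 called 1413 higher and 902 lower, and limma-voom 1022 and 840. These totals stand beside the list counts of those settings below. For list counts at an unadjusted p, the share over all tested genes was not counted.

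Cornea macrophages differed from retinal microglia in 8 of the 9, with 5 higher and 3 lower, where 30.9% of all tested genes were higher and 35.1% lower. Against brain microglia they were higher in 5 and lower in 2, with 33.8% and 33.1% of all tested genes called in those directions. Against marrow monocytes they were higher in 7 and lower in 1, with 32.2% and 31.1% in all. These shares of called genes are large, so a call alone sets few genes apart. The cornea medians over the 9 genes were 0.74, 2.21 and 2.70 log2 units against retina, brain and marrow, where the medians over all tested genes were -0.12, -0.00 and 0.

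Retinal microglia were higher than marrow monocytes in 6 and lower in 2, where 32.2% of tested genes were higher and 27.1% lower. Brain microglia were higher than marrow monocytes in 4 and lower in 3, with 28.5% and 27.4% in all. The median over the 9 genes was 2.34 log2 units for retina against marrow and 0.11 for brain against marrow, beside 0.12 and 0.04 over all tested genes. All comparisons that name the same population share its 4 libraries.

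**Figure D2:**
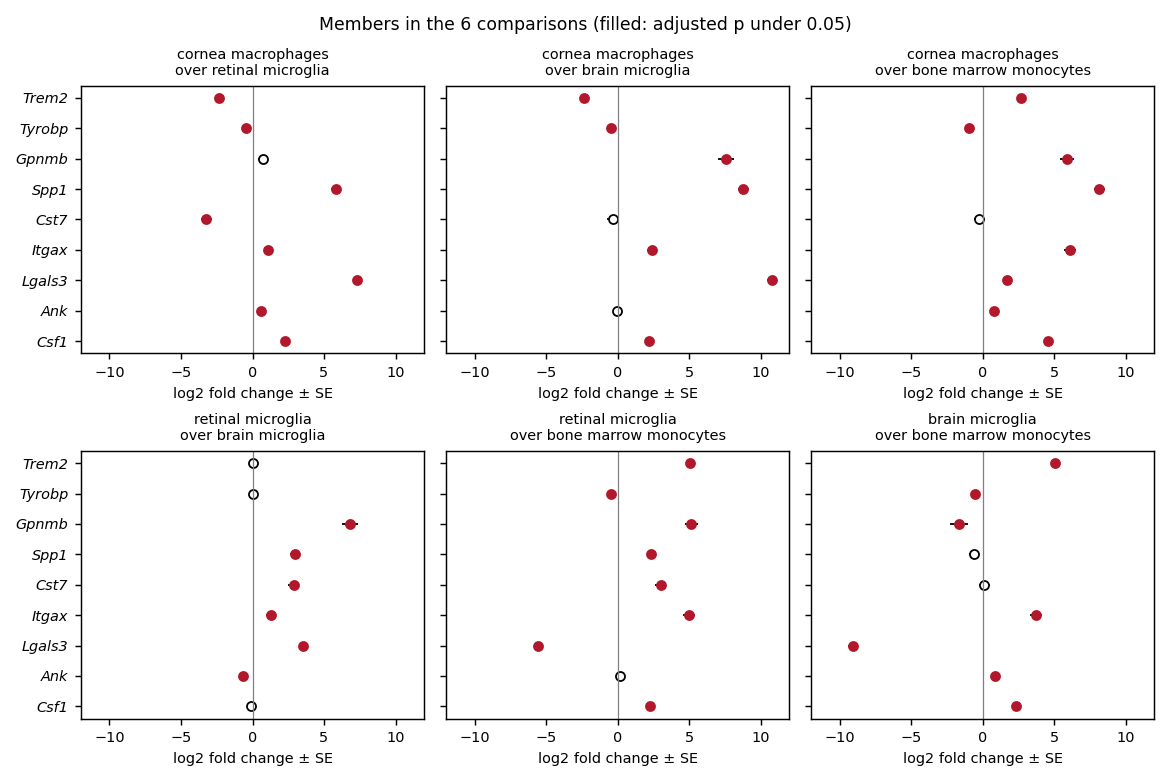
Log2 fold change with its standard error (x axis) of each gene (y axis) in the 6 pairs of populations, first named over second. Filled points passed the test. Trem2, Tyrobp and Csf1 sit near 0 between retinal and brain microglia (0.03, 0.04 and -0.08), while Gpnmb lies at 6.83.

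Trem2 (chr17:48346401-48354147, plus strand, GRCm38 with GENCODE gene bounds, as for all genes below) had 197, 196, 202 and 172 CPM in the cornea libraries 1 to 4. It had 811, 1002, 1322 and 800 CPM in retinal microglia, 845, 935, 986 and 1086 CPM in brain microglia, and 34.7, 31.7, 26.8 and 24.9 CPM in marrow monocytes. The values of both microglia overlapped, while every cornea library lay below every microglial library and above every monocyte library. The means were 192 ± 13.2 CPM in cornea, 984 ± 244 in retina, 963 ± 101 in brain and 29.5 ± 4.53 in marrow (SD, n = 4 each). Retina and brain differed by 0.03 ± 0.16 log2 units (SE, adjusted p = 0.944), an estimate that turned negative without retina 3 (-0.15) or brain 1 (-0.03). Cornea macrophages had 5.13-fold less than retinal microglia (adjusted p = 1.49e-09) and 6.49-fold more than marrow monocytes (adjusted p = 3.63e-10). Retinal microglia had 33.3-fold more than monocytes, and brain microglia 32.6-fold more.

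Tyrobp (chr7:30413760-30417585, plus strand) varied far less, and its order was another. It had 498, 472, 409 and 421 CPM in the cornea libraries, 656, 578, 764 and 495 CPM in the retinal, 592, 472, 754 and 610 CPM in the brain and 980, 1012, 815 and 659 CPM in the marrow libraries. Marrow monocytes, which had the least Trem2, had the most Tyrobp, with ranges that overlapped both microglia but not the cornea. Marrow 1 and 2, the highest in Tyrobp, also held the most granulocyte markers (4402, 2033, 697 and 670 CPM in marrow 1 to 4) and erythroid markers (1661, 1072, 307 and 251 CPM), whose part in Tyrobp was not tested. The cornea fell below marrow by 0.95 ± 0.17 log2 units (adjusted p = 0.00012). The other calls were small: -0.47 for cornea against retina (adjusted p = 0.0215), -0.43 for cornea against brain (adjusted p = 0.0323), -0.48 for retina against marrow (adjusted p = 0.0228) and -0.51 for brain against marrow (adjusted p = 0.0157). Each of these 4 was lost without some single library, with log2 fold changes of -0.34 to -0.44 and adjusted p of 0.052 to 0.0945. The libraries concerned were retina 3 for cornea against retina; cornea 3 or 4 or brain 3 or 4 for cornea against brain; retina 2 or 4 or marrow 1 or 2 for retina against marrow; and brain 2 or marrow 2 for brain against marrow. The call between cornea and retina was also lost without the libraries lacking the letter b (-0.33, adjusted p = 0.174), and that between retina and marrow with scaling by total counts (-0.36, adjusted p = 0.0568).

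To set receptor beside adaptor, levels were divided by gene length (TPM). Tyrobp had 20.6 ± 1.94 times the TPM of Trem2 in cornea macrophages, 5.66 ± 0.968 times in retinal microglia, 5.55 ± 1.05 times in brain microglia and 257 ± 21.0 times in marrow monocytes (SD, n = 4 each). The ratio overlapped between both microglia and was highest in the monocytes. The deposited length of Trem2, 4946 bases, merges all annotated exons, so its TPM and the absolute ratio depend on that length, whereas the comparison of ratios between populations does not.

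**Figure D3:**
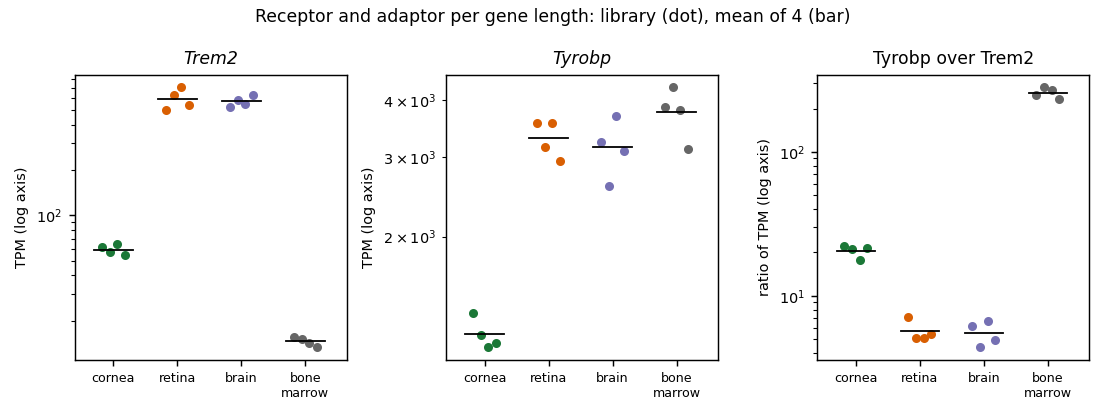
TPM of Trem2 and of Tyrobp and their ratio (y axes, log scale) in each library, with the populations on the x axis; dots are libraries and bars the mean of 4. The monocytes stand at the top of the ratio, at 257, and both microglia near 5.6.

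Monocytes and cornea macrophages expressed other receptors of a list drawn up around TYROBP. Which adaptor each of them uses was not examined. Of 13 tested receptors, TREM family members and others, 10 were higher and 2 lower in the cornea than in retinal microglia. Over all tested genes these shares were 30.9% and 35.1%. In retinal microglia 10 were lower and 2 higher than in monocytes, beside 27.1% and 32.2% of all tested genes. Cd300ld, an activating CD300 receptor of the list, had 486 CPM in cornea, 1.84 in retina, 0.336 in brain and 48.7 in marrow. Siglech, a microglial sialic acid-binding lectin, ran the other way, at 25.2 CPM in cornea, 1438 in retina, 1690 in brain and 0.29 in marrow. Trem1, which amplifies inflammatory signals in myeloid cells, averaged 41.9 CPM in cornea with a count of 0 in all retinal libraries, so it was at least 1068-fold higher, taking 3 counts in the whole group as the floor. Sirpb1b and Sirpb1c, signal-regulatory receptors with near-identical copies among which reads may be split, had counts of 0 in both microglia and 99.6 and 110 CPM in marrow. Cd300ld was the 1 gene of the 13 that edgeR called between the microglia (adjusted p = 0.0411). That call was lost with lane as a term (adjusted p = 0.182) and without the libraries lacking the letter b (adjusted p = 0.134). Of the 13, DESeq2 called 2 higher and 1 lower in retina than in brain, and limma-voom 1 and 0. Hcst (DAP10), the adaptor that TREM2 can use beside TYROBP, was low throughout, at 7.78, 8.57, 7.12 and 10.4 CPM in cornea, retina, brain and marrow.

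Downstream of the receptor, Syk had 147 CPM in the retina and 217 CPM in the brain (log2 fold change -0.56, adjusted p = 0.00789), and it was higher in cornea (651 CPM) and marrow (464 CPM). Of 20 tested genes of TREM2 signalling, DESeq2 called 2 higher and 4 lower in retinal than in brain microglia, and limma-voom 1 and 4. At an unadjusted p under 0.05 edgeR gave 2 higher and 8 lower. At adjusted p edgeR called 1 higher and 2 lower. The higher one was Lat2, a membrane adaptor phosphorylated by SYK, at 195 CPM in retina and 77.9 CPM in brain. The other lower one was Inpp5d, the lipid phosphatase SHIP1 that restrains TREM2 signalling, at 632 CPM in retina and 978 CPM in brain. With lane as a term Lat2 stayed called (1.14, adjusted p = 0.00586), whereas Syk (-0.48, adjusted p = 0.217) and Inpp5d (-0.72, adjusted p = 0.138) did not. Cornea macrophages differed from retinal microglia in 17 of the 20, with 7 higher and 10 lower. Over all tested genes 30.9% were higher and 35.1% lower in this pair, so such a count alone says little about these genes. Malt1, the paracaspase that feeds NF-kappaB, had 491 CPM in cornea and 29.0 CPM in retina, whereas Pik3cg, a PI3-kinase catalytic chain, had 58.1 CPM in cornea and 431 CPM in retina.

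Gpnmb (chr6:49036546-49070929, plus strand) encodes a lysosomal transmembrane glycoprotein of phagocytes and pigment cells. It had 124, 86.2, 93.4 and 64.7 CPM in cornea macrophages and 74.7, 56.9, 59.8 and 29.1 CPM in retinal microglia. Brain microglia had 13, 0, 0 and 9 reads, or 1.11, 0, 0 and 0.653 CPM, and marrow monocytes had 1.99, 1.40, 1.83 and 0.852 CPM. Every library from the eye lay above every library of brain and marrow, and the cornea and retina overlapped. Retinal microglia exceeded brain microglia by 6.83 ± 0.55 log2 units (adjusted p = 7.01e-07), a value that rests on 22 reads in the brain. With lane as a term it was 6.21 (adjusted p = 0.000104). Cornea and retina differed by 0.74 ± 0.37 log2 units, which did not pass the test (adjusted p = 0.0892); limma-voom, with 0.80 and adjusted p = 0.01, and a fit of these populations alone (adjusted p = 0.0469) called it, and scaling by total counts turned it to -0.04.

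Gpnmb is also a gene of pigment cells, so the markers of those cells are given beside it. The 6 markers of retinal pigment epithelium and melanocytes summed to 0.0977 to 1.81 CPM in the retinal libraries and to 0.308 to 1.13 CPM in the cornea libraries. Rpe65, the visual cycle isomerase, and Tyr, the tyrosinase of melanin synthesis, had a count of 0 in all 16 libraries. Mitf, the MiT/TFE factor known to drive Gpnmb, had 116 CPM in cornea, 30.2 in retina, 25.9 in brain and 16.4 in marrow. Of 5 tested MiT/TFE factors and GPNMB relatives, 0 were called between the microglia by edgeR, DESeq2 or limma-voom, and 0 had an unadjusted p under 0.05 in edgeR. Tfec, another factor of that group, had 57.9 CPM in cornea, 0.449 in retina, 0.611 in brain and 22.4 in marrow. Brain was below marrow for Gpnmb by 1.67 ± 0.63 log2 units (adjusted p = 0.0312) at these very low levels; the call was lost with limma-voom, with lane as a term, in the fit of both populations alone, and without brain 2, brain 3, marrow 1 or marrow 3, with adjusted p of 0.0606 to 0.094.

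Itgax (chr7:128129547-128150657, plus strand) encodes CD11c, the alpha chain that pairs with the beta2 integrin ITGB2, and marks dendritic cells as well as activated microglia. It had 66.0, 71.4, 59.8 and 64.2 CPM in cornea macrophages, 46.4, 19.8, 38.5 and 16.3 CPM in retinal microglia, 11.7, 9.56, 14.2 and 14.4 CPM in brain microglia and 1.72, 0.598, 0.822 and 0.355 CPM in marrow monocytes. The 4 populations stood in steps with no overlap between neighbours, and the lowest retinal library lay just above the highest brain library. Cornea exceeded retina by 1.12 ± 0.32 log2 units (adjusted p = 0.00606), which scaling by total counts reduced to 0.33 (adjusted p = 0.357). Retina exceeded brain by 1.27 ± 0.33 (adjusted p = 0.0206). That call was lost with lane as a term (0.73, adjusted p = 0.501), without the libraries lacking the letter b (0.53, adjusted p = 0.422), and without retina 1 (0.99, adjusted p = 0.0737), brain 1 (1.24, adjusted p = 0.0566) or brain 2 (1.16, adjusted p = 0.0626).

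The 8 dendritic cell markers summed to 97.4 to 196 CPM in cornea, 9.53 to 14.0 in retina, 8.84 to 14.0 in brain and 170 to 223 in marrow. Marrow monocytes had the highest median of the dendritic cell sum and the lowest Itgax, and the sums of both microglia overlapped. The list split by gene: Dpp4 (1.85 CPM in cornea, 68.0 in marrow), Cd209a (17.3 in cornea, 60.4 in marrow), Flt3 (4.37 in cornea, 36.4 in marrow) and Clec10a (20.3 in cornea, 30.6 in marrow) made up the marrow sum. Zbtb46 (30.3 in cornea, 1.23 in marrow), Xcr1 (42.2 in cornea, 0.566 in marrow) and Ccr7 (30.0 in cornea, 0 in marrow) were highest in the cornea, as Itgax was. The part of dendritic cells in Itgax was not tested. Itgb2, the partner chain, had 949 CPM in cornea, 802 in retina, 761 in brain and 1233 in marrow.

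Spp1 (chr5:104435118-104441050, plus strand) encodes osteopontin, a secreted ligand of CD44 and of integrins. It had 1304, 1061, 1344 and 948 CPM in cornea macrophages, 34.6, 12.8, 20.0 and 16.0 CPM in retinal microglia, 3.52, 2.34, 1.79 and 2.83 CPM in brain microglia and 4.65, 1.89, 4.11 and 5.33 CPM in marrow monocytes. Cornea stood alone at the top and retina between it and the other populations, with no overlap. Cornea exceeded retina by 5.81 ± 0.33 log2 units (adjusted p = 1.1e-10), and retina exceeded brain by 2.97 ± 0.33 (adjusted p = 1.52e-05), or 2.63 with lane as a term (adjusted p = 0.00399). Brain and marrow overlapped (-0.63 ± 0.35, adjusted p = 0.139), although without marrow 2 the difference passed (-0.84, adjusted p = 0.0429).

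Among the receptors of osteopontin, Cd44 had 1070 CPM in cornea, 22.4 in retina, 3.02 in brain and 512 in marrow, so ligand and receptor were both higher in retinal than in brain microglia (Cd44 log2 fold change 2.86, adjusted p = 1.09e-06). Of 11 tested osteopontin receptors and beta2 integrin partners, DESeq2 and limma-voom each called 1 higher and 5 lower in retina than in brain. By edgeR 1 was higher and 3 were lower. The lower ones were Itgb1 (381 CPM in retina, 535 in brain), Itga9 (67.6 in retina, 142 in brain) and Itgam (870 in retina, 1393 in brain). With lane as a term Cd44 stayed called (2.70, adjusted p = 0.000256) and the lower ones did not, at adjusted p of 0.293, 0.106 and 0.0876; without the libraries lacking the letter b Itga9 was not called either (adjusted p = 0.0812). Against retinal microglia, cornea macrophages were higher in 7 of the 11 and lower in 3, beside 30.9% and 35.1% of all tested genes. Itgb5, a partner of the alphaV chain, had 166 CPM in cornea, 2246 in retina, 2953 in brain and 55.2 in marrow. Itgb3, another beta partner of that chain, had 5.13, 102, 110 and 65.3 CPM in the same order.

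Lgals3 (chr14:47367751-47386160, plus strand) encodes galectin-3, a sugar-binding protein of phagocytes that is released and gathers on damaged lysosomes. It had 4475, 4263, 4783 and 5640 CPM in cornea macrophages and 22.4, 38.8, 42.6 and 19.9 CPM in retinal microglia. Brain microglia had 3.60, 3.15, 1.98 and 2.03 CPM and marrow monocytes 1582, 1519, 1390 and 1359 CPM. It was the member with the widest range, and no populations overlapped. As for Tyrobp, marrow 1 and 2, the libraries with most granulocyte and erythroid markers, were the highest of the marrow, and the part of those cells was not tested. Cornea exceeded brain by 10.80 ± 0.33 log2 units (adjusted p = 1.06e-13), cornea exceeded marrow by 1.71 ± 0.22 (adjusted p = 2.9e-06), and retina exceeded brain by 3.52 ± 0.26 (adjusted p = 2.43e-07), with 3.61 under the lane term (adjusted p = 3.28e-05). Brain fell below marrow by 9.09 ± 0.31 log2 units (adjusted p = 3.23e-13).

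Lgals3 is also made by corneal epithelium, so the epithelial sums are set beside it. Cornea libraries 1 to 4 held 1321, 364, 514 and 230 CPM of the 6 epithelial markers. The library with the highest Lgals3, cornea 4, had the lowest epithelial sum. The keratocyte sums were 1388, 1495, 2586 and 2223 CPM, and cornea 3 and 4, with the most, also had the most Lgals3. Gpnmb ran in the order of the epithelial sums, highest in cornea 1 and lowest in cornea 4, which also had the least Spp1. The part of epithelial or keratocyte RNA in the cornea values of Gpnmb, Spp1 and Lgals3 was not tested. Of 5 other galectin genes tested, 2 were higher and 1 lower in retina than in brain by edgeR (2 and 1 by DESeq2, 1 and 1 by limma-voom). Lgals3bp, a secreted partner of galectin-3, had 408 CPM in retina and 201 in brain, and Lgals8 had 97.0 in retina and 134 in brain; the other higher one was Lgals1. None of these 3 calls was kept with lane as a term (adjusted p of 0.0567, 0.606 and 0.226 for Lgals3bp, Lgals8 and Lgals1) or without the libraries lacking the letter b (0.1, 0.069 and 0.198). Lgals1 had 472 CPM in cornea, 5.15 in retina, 1.85 in brain and 205 in marrow, the same order as Lgals3.

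Cst7 (chr2:150570415-150578944, plus strand) encodes cystatin F, an inhibitor of lysosomal cysteine proteases such as cathepsin C. It was the member that singled out retinal microglia, with 3.06, 4.35, 3.08 and 7.11 CPM in cornea macrophages, 41.9, 37.9, 70.1 and 18.7 CPM in retinal microglia, 4.63, 4.47, 6.94 and 6.53 CPM in brain microglia and 6.78, 3.09, 5.30 and 5.54 CPM in marrow monocytes. Every retinal library lay above every other library, and the other 3 populations overlapped. Cornea fell below retina by 3.24 ± 0.39 log2 units (adjusted p = 1.45e-06). Retina exceeded brain by 2.90 ± 0.38 (adjusted p = 9.8e-05), or 3.12 with lane as a term (adjusted p = 0.00452), and exceeded marrow by 3.01 ± 0.38 (adjusted p = 3.99e-06). The differences among cornea, brain and marrow did not pass, with an adjusted p of 0.428 (cornea, brain), 0.607 (cornea, marrow) and 0.822 (brain, marrow) in edgeR; scaling by total counts called cornea lower than brain (-1.01, adjusted p = 0.0196) and marrow (-0.90, adjusted p = 0.0343).

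The protease side of this pair changed little between the microglia. Ctsc, cathepsin C, had 1368 CPM in cornea, 1209 in retina, 883 in brain and 1580 in marrow, and retina against brain missed the threshold (adjusted p = 0.0776). Of 7 tested cystatins and protease targets, 0 were higher and 1 was lower in retina than in brain by edgeR (3 and 1 at an unadjusted p under 0.05; 1 and 1 by DESeq2 and by limma-voom); the lower one was Lgmn, the lysosomal protease legumain, at 2969 CPM in retina and 3949 in brain, a call lost with lane as a term (adjusted p = 0.0851) and without the libraries lacking the letter b (adjusted p = 0.201). Cst3, the secreted cystatin C typical of microglia, had 2011 CPM in cornea, 16919 in retina, 20816 in brain and 1027 in marrow. Cstb, a cytosolic cystatin, ran the other way at 1611, 41.8, 38.3 and 85.1 CPM in that order.

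Csf1 (chr3:107741048-107760469, minus strand) encodes the growth factor on which microglia and monocytes depend through CSF1R. It had 79.9, 169, 124 and 203 CPM in cornea macrophages, 24.3, 36.7, 33.7 and 23.5 CPM in retinal microglia, 26.4, 29.8, 32.2 and 36.3 CPM in brain microglia and 6.64, 5.28, 5.57 and 6.89 CPM in marrow monocytes. The microglia overlapped, between a higher cornea and a lower marrow. Retina and brain differed by -0.08 ± 0.23 log2 units (adjusted p = 0.895), cornea exceeded retina by 2.28 ± 0.24 (adjusted p = 3.04e-07), and retina exceeded marrow by 2.27 ± 0.25 (adjusted p = 8.1e-07). Within the cornea, the classical monocyte sum was 537 and 637 CPM in libraries 1 and 3, which had the least Csf1. It was 1072 and 1065 CPM in libraries 2 and 4, which had the most. Most of this sum was F13a1 (489 to 1006 CPM in the cornea libraries), which is also in the tissue macrophage list. The part of monocytes in Csf1 was not tested.

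Csf1r, the receptor, had 2800 CPM in cornea, 8247 in retina, 11975 in brain and 1540 in marrow, so marrow had the least of receptor and ligand alike, and it was lower in retina than in brain (-0.54, adjusted p = 0.00696); with lane as a term this was -0.61 (adjusted p = 0.0946). Il34, the other CSF1R ligand, had 19, 12, 0 and 29 reads in cornea and 0 reads in the other populations, which allows up to 0.0392 CPM in retina, 0.0661 in brain and 0.0524 in marrow at 3 counts over the group; this limit covers counting error only. Of 7 tested genes of the CSF family and its receptors, 1 was higher and 1 lower in retina than in brain. Csf2ra, the GM-CSF receptor alpha chain, had 95.2 CPM in retina and 31.6 in brain, and stayed called with lane as a term (1.84, adjusted p = 0.00177). Cornea macrophages alone had many reads of the growth factor genes Csf2 (30.1 CPM) and Csf3 (65.5 CPM), with 1 read of Csf2 and 0 of Csf3 in all retinal, brain and marrow libraries together.

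**Figure D4:**
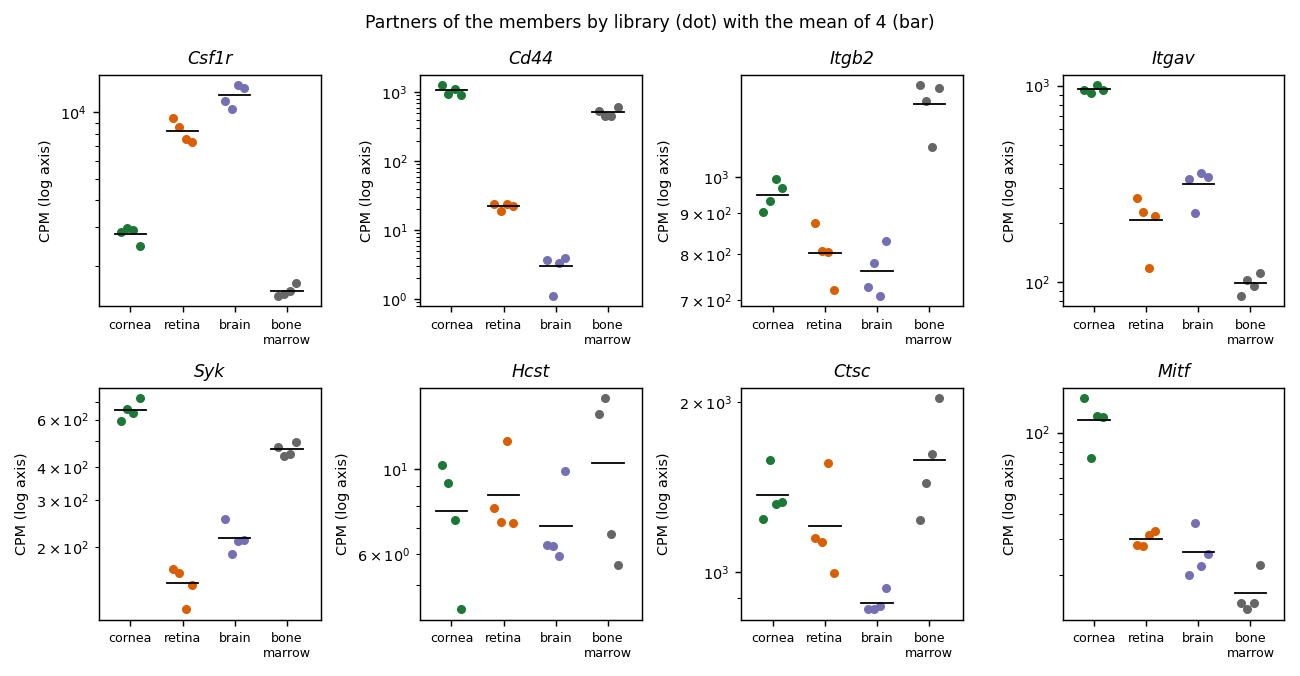
CPM of receptors, an adaptor, a kinase, a protease and a transcription factor tied to the 9 genes (y axes, log scale) in each library, with the populations on the x axis; dots are libraries and bars the mean of 4. Csf1r is highest in brain microglia, at 11975 CPM, and Cd44 is higher in retinal than in brain microglia, at 22.4 against 3.02 CPM.

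Ank (chr15:27466677-27594909, plus strand) encodes a membrane protein that carries pyrophosphate and ATP out of cells. It varied least after Tyrobp, with 67.6, 67.9, 60.6 and 49.1 CPM in cornea macrophages, 36.1, 51.9, 33.5 and 37.2 CPM in retinal microglia, 49.0, 57.4, 65.3 and 79.8 CPM in brain microglia and 38.2, 41.7, 30.1 and 31.2 CPM in marrow monocytes. Cornea and brain overlapped, retina and marrow likewise, and 1 retinal library reached into the brain range. It was the member that was lower in retinal than in brain microglia, by 0.66 ± 0.18 log2 units (adjusted p = 0.028). The call was lost with lane as a term (-0.95, adjusted p = 0.081), without the libraries lacking the letter b (-0.50, adjusted p = 0.226), with total counts (-0.54, adjusted p = 0.0678) and without retina 1, 3 or 4 or brain 3 or 4 (-0.53 to -0.65, adjusted p of 0.0648 to 0.107). Cornea exceeded retina by 0.63 ± 0.18 (adjusted p = 0.00641), a difference that was 0.38 without the libraries lacking the letter b (adjusted p = 0.174) and turned to -0.17 with total counts. Cornea exceeded marrow by 0.80 ± 0.18 (adjusted p = 0.00121), which total counts reduced to 0.12 (adjusted p = 0.566). Ank overlaps Otulin on the opposite strand, and whether counting used strand is not stated, so reads of both genes may not be told apart.

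Around pyrophosphate, Alpl, the phosphatase that degrades it, had 160, 132, 56 and 725 reads in retinal and 0 reads in all brain libraries. It was at least 194-fold higher in the retina, taking 3 counts in the brain group as the floor, and 1 library held most of its reads. Per library this was 12.6, 6.45, 3.02 and 29.2 CPM in retina 1 to 4, the same order as the photoreceptor sums of 2980, 1905, 677 and 6422 CPM, and the part of photoreceptor RNA in Alpl was not tested. Of 5 genes tested for pyrophosphate and phosphate handling, edgeR called Alpl alone, with or without lane as a term; DESeq2 called 2 higher and 1 lower, limma-voom 2 higher and 0 lower, and edgeR without the libraries lacking the letter b 2 higher and 0 lower of 6 tested. Slc20a1, a phosphate importer, had 214 CPM in cornea, 34.8 in retina, 19.1 in brain and 11.3 in marrow.

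The retinal libraries differed widely among themselves for several of the genes. The SD reached 48.0% of the mean for Itgax, 50.3% for Cst7, 46.1% for Spp1 and 34.5% for Gpnmb, while Trem2 reached 24.8% and Tyrobp 18.4%. In 5 of the 9 genes (Tyrobp, Gpnmb, Spp1, Cst7 and Itgax) retina 1 and 3, whose titles lack the letter b, both lay above retina 2 and 4. The share of all tested genes with this order was not counted, so this count does not set these genes apart. For Itgax the means were 42.4 CPM without and 18.1 CPM with the letter, a ratio of 2.35. For Cst7 they were 56.0 and 28.3 CPM, for Spp1 27.3 and 14.4 CPM, and for Gpnmb 67.2 and 43.0 CPM. Ank lay the other way, and Trem2, Lgals3 and Csf1 overlapped. Retina 4, with the lowest Cst7, Gpnmb, Itgax and Lgals3, had the highest photoreceptor sum (6422 CPM), and retina 3, with the highest Cst7 and Lgals3, had the lowest (677 CPM); retina 1 and 2 had 2980 and 1905 CPM. The part of photoreceptor RNA in these values was not tested.

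**Figure D5:**
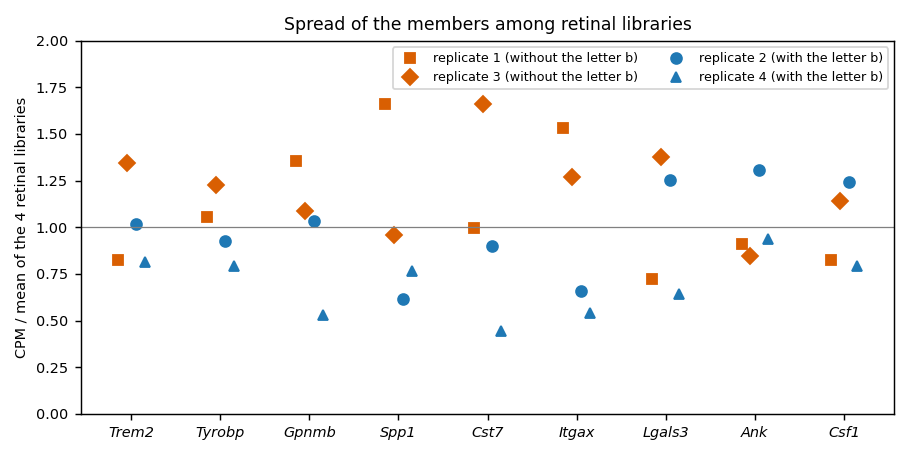
CPM of each gene in the 4 retinal libraries divided by their mean (y axis), for the 9 genes on the x axis. Orange symbols are replicates 1 and 3 and blue symbols replicates 2 and 4; for Itgax both orange symbols lie above both blue ones, at means of 42.4 and 18.1 CPM.

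Of 27 other genes of the disease-associated programme tested, 13 were higher and 0 lower in retinal than in brain microglia and 14 did not pass, with a median log2 fold change of 0.63 against 0.05 over all tested genes. Of all tested genes edgeR called 6.95% higher and 3.6% lower in this pair. DESeq2 and limma-voom each called 14 of the 27 higher and 0 lower. Of all tested genes DESeq2 called 1413 higher and 902 lower, and limma-voom 1022 and 840. In edgeR 15 of the 27 were higher and 0 lower at an unadjusted p under 0.05. At that unadjusted level limma-voom gave 16 higher and 1 lower, edgeR with lane as a term 13 and 3, and edgeR without the libraries lacking the letter b 13 and 2. How many of all tested genes reach that unadjusted level was not counted. Axl, a receptor for phosphatidylserine on dying cells, had 255 CPM in retina and 19.3 CPM in brain (log2 fold change 3.72, adjusted p = 1.6e-07). Clec7a, the beta-glucan receptor dectin-1, had 290 CPM in retina and 22.4 CPM in brain (3.70, adjusted p = 9.43e-10). Igf1, a trophic growth factor, had 10.9 CPM in retina and 1.67 CPM in brain (2.72, adjusted p = 5.01e-05). Apoe, a lipid carrier bound by TREM2, had 2531 CPM in retina and 523 CPM in brain (2.27, adjusted p = 4.62e-06). With lane as a term 8 of the 27 were higher and 0 lower, these 4 among them, and without the libraries lacking the letter b 12 were higher and 0 lower.

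Of 18 genes of the homeostatic state tested, 0 were higher and 7 lower in the retina and 11 did not pass, with a median of -0.57 (edgeR; 1 higher and 12 lower at an unadjusted p under 0.05, and 2 and 7 with lane as a term). Of all tested genes edgeR called 6.95% higher and 3.6% lower in this pair. For the 18 genes DESeq2 called 0 higher and 11 lower, beside 1413 higher and 902 lower of all tested genes. For the same genes limma-voom called 1 higher and 12 lower, beside 1022 and 840 of all. Gpr84, a receptor for medium-chain fatty acids, was above the brain in every retinal library and did not pass in edgeR (189 CPM in retina and 126 CPM in brain, adjusted p = 0.156). Fcrls, an Fc receptor-like scavenger receptor, had 591 CPM in retina and 3453 CPM in brain, and Upk1b, a uroplakin, had 21.2 CPM in retina and 126 CPM in brain. With lane as a term 1 of the 18 was called lower, Fcrls (-2.15, adjusted p = 0.0068), and without the libraries lacking the letter b 9 were. Immediate-early genes, which can rise during cell isolation, were higher in the retina for 4 of 13 and lower for 0; with lane as a term edgeR called 0 of 13 (4 higher and 2 lower at an unadjusted p under 0.05) and the median turned to -0.55. Their sum was 1099, 1822, 1084 and 2338 CPM in retinal libraries 1 to 4 and 985 to 1411 CPM in brain libraries, so retina 1 and 3 overlapped the brain. Retina 1 and 3 were also those with the higher Itgax, Gpnmb, Cst7 and Spp1, and the part of cell isolation in these values was not tested.

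In the cornea the immediate-early sum was 23058 to 34115 CPM, far above the 465 to 1463 CPM of marrow, and 12 of 13 such genes were higher than in retinal microglia. Of the 27 other disease-associated genes, 17 were higher and 6 lower in cornea macrophages than in retinal microglia, and 22 were higher and 5 lower than in marrow monocytes. Over all tested genes 30.9% were higher and 35.1% lower in the cornea than in retinal microglia. Against marrow monocytes these shares were 32.2% and 31.1%. Ccl4, a chemokine, had 4374 CPM in cornea, 57.6 in retina, 23.7 in brain and 2.13 in marrow. Ctsd, the lysosomal protease cathepsin D, had 5119 CPM in cornea and 14271 in retina. The part of digestion at 37 °C in the cornea values was not tested.

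Over the 5 pairs of populations that share a sequencer lane, 46 of 46 log2 ratios of mean CPM within a lane had the sign of the pooled fold change of the called differences. Those calls came from the same libraries, so their signs could hardly disagree. Among differences not called, Cst7 changed sign in lane 3. For cornea against brain it was 0.33 within the lane and -0.35 pooled, and for cornea against marrow 0.61 and -0.23. Lane 3 holds 1 cornea library and lane 2 holds 1 marrow library, so 31 of the 46 ratios, in 4 of 6 lane comparisons, rest on 1 library on one side, and all these libraries are also in the pooled fit. Retina and brain share no lane, so they gave no such value.

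Across the 16 libraries, each gene was matched with the 3 genes at the smallest root mean square difference of centred log2 CPM. The values were not scaled, so genes that vary little lie close to each other even where their orders differ. Trem2 lay closest to Ddah2 (0.31), Tubb2b (0.33) and Maf (0.34), a transcription factor that had 76.7 CPM in cornea, 411 in retina, 459 in brain and 11.6 in marrow. Tyrobp lay closest to Gemin7 (0.16), Frg1 (0.19) and Mcts1 (0.20), and Ank to Nckap1l (0.24), Srpr (0.25) and Arhgef2 (0.25). Csf1 lay closest to Pea15a (0.35), Lgals3 to Wfdc17 (0.54) and Cst7 to Tnfsf13b (0.45), the cytokine BAFF, at 7.59 CPM in cornea, 62.0 in retina, 14.7 in brain and 11.0 in marrow. Itgax lay closest to Nab2 (0.58), Spp1 to Ahnak2 (0.80) and Gpnmb to Samd11 (1.15), the loosest match. Among the 9 genes themselves the smallest difference was that of Tyrobp and Ank at 0.71, followed by Itgax and Csf1 at 1.12, and the largest that of Trem2 and Lgals3 at 6.08. No gene of the set was therefore among the 3 nearest of another. Tyrobp and Ank both varied little and did not share an order. Mean Tyrobp was highest in marrow (866 CPM) and lowest in cornea (450 CPM). Mean Ank was highest in brain (62.9 CPM) and lowest in marrow (35.3 CPM).

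Per gene length, the order of the genes within a population also differed. In cornea macrophages Lgals3 led with 3959 ± 602 TPM, ahead of Tyrobp (1220 ± 97.3) and Spp1 (1084 ± 197). In retinal microglia Tyrobp led with 3309 ± 309 TPM, followed by Trem2 (594 ± 90.0) and Cst7 (125 ± 50.7), and Lgals3 had 49.4 ± 15.1 TPM. In brain microglia Tyrobp (3150 ± 458) and Trem2 (572 ± 43.5) were followed by Ank (51.1 ± 8.87), and Gpnmb came last at 0.349 ± 0.437 TPM. In marrow monocytes Tyrobp (3770 ± 473) and Lgals3 (1944 ± 33.9) led, and Itgax came last at 0.517 ± 0.311 TPM (SD, n = 4 in each).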

How the data were processed

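Bulk RNA of 4 sorted mouse populations was counted in 16 libraries. The deposited table holds raw read counts per gene and a gene length in bases, per the file headers. CASAVA 1.8.2, Subread, featureCounts, limma and build GRCm38.p4 are named in the submitters' processing notes; no source used here states their order, the annotation or the strand setting. The labels' extraction text describes another tissue and mouse line, so the library kit is uncertain too. Total counts were 8.68 to 21.76 M per library. Entries whose symbol had become a date (27, at most 0.223% of a library) were kept under those names and not described, and 16739 entries had a count of 0 throughout. GENCODE vM21 on GRCm38 held 91.8% of the symbols and gave coordinates.

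Counts were filtered (filterByExpr by population, minimum count 10) and fitted in edgeR 4.0.16 (R 4.3.3) over all libraries with TMM factors (0.66 to 0.71 in cornea, 1.07 to 1.25 elsewhere) and a term for population alone. The 6 pairs were tested by the quasi-likelihood test, Benjamini-Hochberg adjusted over all tested genes. The standard error is the absolute log2 fold change over the square root of F. CPM use TMM-scaled library sizes and a prior count of 2 on the log scale, and TPM use the deposited lengths. Floors are 3 counts and cover counting error only. Over 24 pairs of libraries of 1 population, the chi-square per degree of freedom of the counts was 11.3 to 95.5, so no library was a copy of another. The pipeline was tested on simulated data. Alternatives were RLE factors, total counts, no filter, DESeq2 1.42.0, limma-voom (3.58.1), lane as a term, 2 populations alone, no libraries lacking the letter b, a replicate block and leaving out each library; list counts between the microglia under 4 of these settings were added after seeing the data.

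The genes and lists were chosen with earlier results of these data known. All 9 genes are named; from each list, up to 3 called genes per direction with the largest fold change, no overlap between populations and at least 10 CPM in the higher one are eligible, and Csf1r, Il34, Itgb2, Cd44, Syk, Hcst and Ctsc are named whatever they show. Other list genes are named beside these to complete a comparison, chosen after their values were seen.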

Additional observations from a re-analysis of the deposited data

How the results depend on the processing

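Over all alternatives, 1244 of the log2 fold changes of the 9 genes kept direction and call, 36 lost the call, 6 gained it and 19 changed sign. Of the counts, that of all genes called between retina and brain moved by over 1.5 times, to 463 (316 higher, 147 lower) with lane as a term, of which 394 were among the 1662. Leaving out 1 library gave 1140 to 2004 there and 4 to 6 of the 9 genes called; for the other pairs the ranges were 7 to 8 (cornea against retina), 6 to 7 (cornea, brain), 8 to 8 (cornea, marrow), 7 to 8 (retina, marrow) and 5 to 7 (brain, marrow). Total counts shifted the median of all genes by -0.79, -0.67 and -0.67 log2 units for cornea against retina, brain and marrow and split the calls 2922 higher to 8489 lower, 3566 to 7609 and 3503 to 7532; between the microglia the shift was 0.12 and the split 1353 to 290, against 1095 to 567 with TMM. Signs changed with total counts for cornea against retina in Gpnmb (-0.041) and Ank (-0.17) and for retina against brain in Csf1 (0.044); with lane as a term for retina against brain in Trem2 (-0.23), Tyrobp (-0.15) and Csf1 (0.23) and for retina against marrow in Ank (-0.042); and without the libraries lacking the letter b for retina against brain in Trem2 (-0.10) and Tyrobp (-0.18). Leaving out 1 library turned retina against brain in Trem2 (-0.15 without retina 3, -0.03 without brain 1), Tyrobp (-0.077 without retina 3, -0.07 without brain 2) and Csf1 (0.0040 without retina 1, 0.021 without retina 4, 0.0023 without brain 4), cornea against brain in Ank (0.03 without cornea 4, 0.092 without brain 4), and brain against marrow in Cst7 (-0.065 without marrow 2); of the differences that changed sign, that of Ank between cornea and retina was called with TMM and the others were not, and the cause was not tested. Over these single omissions the highest values were 0.15 for Tyrobp (retina, brain, without brain 3) and 0.27 for Cst7 (brain, marrow, without marrow 1), and the lowest was -0.20 for Csf1 (retina, brain, without retina 2). The title ranges that brain and marrow share gave a replicate block under which 8575 genes were called, against 8817, and 7 of the 9 in both fits, but libraries of 1 range did not deviate together (r of -0.01 and 0.03 across genes), so the block is no pairing. Depth limits Gpnmb in brain and Itgax in marrow most, at 22 and 58 reads over 4 libraries.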

Other observations

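In each of the 36 groups of 4 libraries formed by the 9 genes and 4 populations, the highest and lowest library was set against Dixon's 95% critical value, which chance exceeds in about 1 in 20 groups, and 0 exceeded it.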
